A study of Mus musculus with 3 samples.

Results

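The Notch genes examined here were 4 receptors (Notch1, Notch2, Notch3 and Notch4), 4 ligands (Dll1, Dll4, Jag1 and Jag2) and the target genes Hey1 and Hes1. Members were taken by name: a gene was represented by the probe set whose platform annotation names that gene alone, with the highest mean where there were several. All 10 were measured, out of 19938 genes represented in this way, and each had exactly 1 such probe set. Levels came from 3 arrays of a single group, endothelial cells sorted by green fluorescence from the dissected renal medulla of adult male FVB/N mice that carry the Tg(TIE2GFP)287Sato transgene. No treatment, mutation or second age was part of the series, and each array read a pool of 2 kidneys. In these mice GFP is driven by the Tie2 (Tek) promoter, which is active in endothelium and is also known from some blood cells, so the sort selects promoter activity and not vessel type. Descending and ascending vasa recta and the capillaries between them were therefore measured together. Fewer cells that express a gene and less RNA per cell cannot be told apart in such a pool.

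Notch signaling passes between touching cells. A ligand of the Delta or Jagged family on one cell pulls on a receptor on its neighbor, ADAM proteases and then gamma-secretase cut the receptor, and the freed intracellular domain enters the nucleus, where it joins the DNA-binding protein RBPJ and a Mastermind coactivator to switch on target genes such as those of the Hes and Hey families of repressors. In growing vessels Dll4 and Notch1 are known for restraining sprouting, and the pathway is known for arterial identity. Notch4 and Dll4 are the receptor and ligand known best from endothelium, whereas Notch3 is known as the receptor of smooth muscle and pericytes.

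The stretch of 250 bases before the gene start is shown for the receptor Notch4, the ligand Dll4 and the receptor Notch1, because these genes stand for the endothelial receptor and ligand pair and for the receptor whose level varied most between arrays. Sequences are from RefSeq, build GRCm38.p6, written 5′ to 3′ on the strand of the gene. Capitals mark GGGCGG, the GC box, and CAGGAA, a core of ETS factor sites with flanking bases, on either strand.
Notch4, chr17:34564045-34564294, plus strand: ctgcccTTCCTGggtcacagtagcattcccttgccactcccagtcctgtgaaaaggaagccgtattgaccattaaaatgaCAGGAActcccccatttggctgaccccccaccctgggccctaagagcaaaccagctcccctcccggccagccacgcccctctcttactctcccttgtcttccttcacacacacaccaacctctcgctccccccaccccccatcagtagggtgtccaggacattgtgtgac
Dll4, chr2:119325534-119325783, plus strand: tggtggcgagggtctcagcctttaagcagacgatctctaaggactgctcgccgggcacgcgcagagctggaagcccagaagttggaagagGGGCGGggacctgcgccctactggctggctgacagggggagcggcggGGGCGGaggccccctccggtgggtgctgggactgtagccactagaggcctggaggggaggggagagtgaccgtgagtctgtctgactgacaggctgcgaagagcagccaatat
Notch1, chr2:26503823-26504072, minus strand: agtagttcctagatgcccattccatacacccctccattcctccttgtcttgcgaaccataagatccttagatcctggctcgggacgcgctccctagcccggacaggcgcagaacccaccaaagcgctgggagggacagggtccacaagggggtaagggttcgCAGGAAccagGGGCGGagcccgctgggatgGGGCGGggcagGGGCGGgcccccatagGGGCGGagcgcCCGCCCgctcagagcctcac

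These windows differed in composition, with 58.4% G and C for Notch4, 65.6% for Dll4 and 66.0% for Notch1. The GC box stood 5 times in the Notch1 window, 2 times in that of Dll4 and not in that of Notch4, while CAGGAA stood 2 times in the Notch4 window and 1 time in that of Notch1. Of the 10 genes, 8 matched the promoter table, with 9 windows because Dll1 has 2 starts there. The targets Hey1 and Hes1 had no window, so the motif counts do not cover them. The GC box was found in 5 of the 9 windows (Notch1, Notch2, Notch3, Dll4 and Jag2), against 32.7% of all 32851 windows of this length. CAGGAA was found in 2 of 9, against 25.7%. The core letters of the RBPJ site, TGGGAA, were in none of the 9 windows and in 21.6% of all windows, and the palindromic E-box CACGTG, which Hey factors can bind, was likewise in none, against 6.02%. Both strands were searched, and no motif letters were counted beyond these windows. A match is a run of letters and not a measured site.

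Levels are given as deposited, on a log2 scale, or as units, 2 to the power of the log2 level. They were held against 2 limits. The first was 100 units (log2 6.64), the low-level filter named in the methods of the study. The second was a background limit of log2 7.94 (246 units), the 95th percentile of the mean levels of 1242 probe sets for olfactory, vomeronasal and bitter taste receptors. Some of those receptors may be transcribed in kidney, so the limit is approximate, and a gene below it is not shown to be silent. A gene above it is likewise not shown to be expressed, because some of the sensory receptor probe sets lie above it too. The medians of the arrays over 35557 probe sets reached at most log2 8.03. Pecam1, the adhesion molecule CD31, stood at log2 12.44 ± 0.08 (SD, n = 3) and the cadherin gene Cdh5 at 12.71 ± 0.18. Tek, whose promoter drives the transgene, stood at 12.80 ± 0.19 and its relative Tie1 at 10.47 ± 0.13. All 8 endothelial markers were called above the background limit, against 52.7% of all genes. Of all genes, 46.3% had an identical value in all 3 arrays, 29.7% had 2 different values and 24.0% had 3. A spread of 0 in the values below is therefore a property that many probe sets of the table shared, and the number of arrays limits the precision.

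Among the receptors, Notch1, Notch3 and Notch4 lay above the background limit and Notch2 below it. Notch1 stood at 1073 units in replicate 1, 741 in replicate 2 and 1073 in replicate 3. Replicate 2 was the low one, by a factor of 1.45, and the other arrays held the same value. The mean of Notch1 was log2 9.89 ± 0.31 (SD, n = 3), which is 1.95 ± 0.17 (SE) log2 units over the background limit (adjusted p = 0.0056 by limma). Without replicate 1 or without replicate 3, which leaves arrays that disagree, the adjusted p rose to 0.089 and 0.0898, the highest of 13 alternatives. Only 2 of the 1242 sensory receptor probe sets were at or above its mean.

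Notch4, the receptor known from endothelium, had 795 units in every array (log2 9.64, SD 0, n = 3). That is 1.69 log2 units above the background limit, and 3 of the sensory receptor probe sets reached it. Because an SD of 0 makes the error of the fit too small, the fit was repeated with the error prior taken from genes with 3 different values. In this fit the SE was 0.06 and the adjusted p was 5.41e-05 by limma, the highest of 13 alternatives. Another 6 probe sets name Notch4 together with the unrelated gene Sympk and were left out by the rule. They ranged from log2 6.88 to 8.16 in replicate 1, from 7.23 to 8.29 in replicate 2 and from 6.57 to 7.42 in replicate 3. All 6 were lowest in replicate 3 and none had a mean over the background limit, so they did not share the flat values of the Notch4 probe set. Which transcript they read cannot be told from the annotation.

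Notch3, the receptor known from smooth muscle and pericytes, had 364 units in every array (log2 8.51, SD 0, n = 3). It lay 0.57 log2 units above the background limit (SE 0.06, adjusted p = 0.0012 by limma with the error from genes with 3 different values, the highest of 13 alternatives). With the 99th percentile of the sensory receptors as the limit it lay below, by a difference of -0.22. In the same arrays, 4 of 11 mural cell markers were called above the background limit, 5 below it and 2 neither. For all genes the shares were 52.7% above and 41.3% below. Smooth muscle actin Acta2 and the PDGF receptor Pdgfrb stood at log2 7.56, the myosin Myh11 at 7.98 ± 0.05 and the transgelin gene Tagln at 7.80 ± 0.06 (SD, n = 3). The markers above the limit were the proteoglycan gene Cspg4 at log2 8.02, Mcam, which endothelium also expresses, at 9.78, and the potassium channel genes Kcnj8 at 8.87 and Abcc9, the last named after its value was seen. With the error prior from genes with 3 different values, 2 of the 11 remained above the limit (Mcam and Kcnj8). The summed level of the 11 markers was 3302 to 3350 units over the arrays, a sum that includes background signal. The part of mural cells in the Notch3 level was not tested.

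Notch2, a receptor with wide use in kidney epithelium and in other tissues, had 195 units in replicate 1 and 217 in replicates 2 and 3. All arrays were under the background limit and above 100 units. The mean was log2 7.71 ± 0.09 (SD, n = 3), with a difference of -0.23 ± 0.05 (SE) from the background limit (adjusted p = 0.035 by limma). This call was lost without replicate 2 (adjusted p = 0.181) and without replicate 3 (adjusted p = 0.18), and 99 of the 1242 sensory receptor probe sets were at or above the Notch2 mean.

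**Figure D1:**
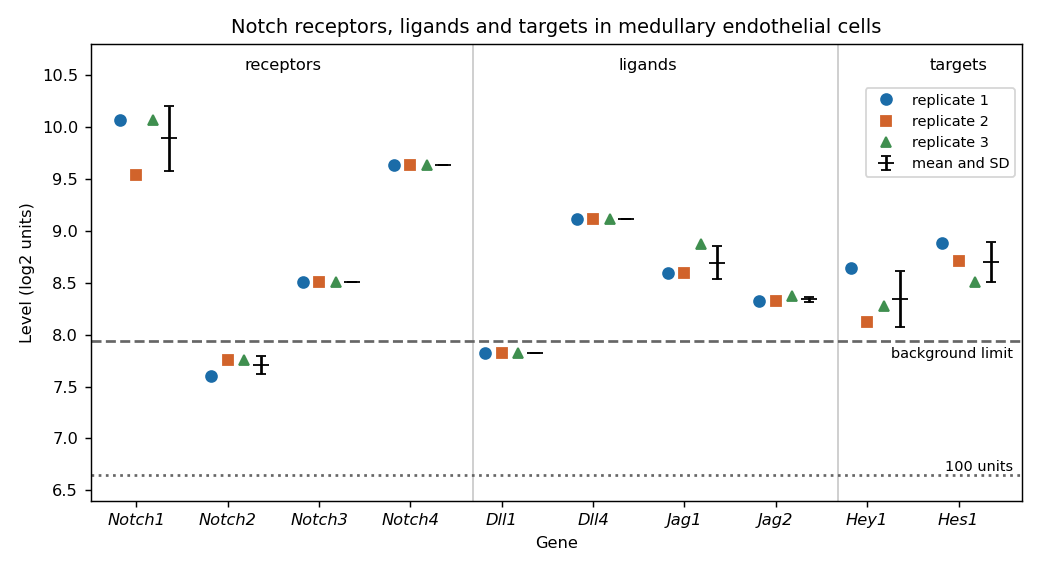
Level (y axis, log2 units) of the 10 Notch genes (x axis), with a symbol for each replicate and a bar to the right for mean and SD (n = 3). The dotted line is 100 units (6.64) and the dashed line the background limit (7.94); Notch2 and Dll1 lie between the lines, and Notch3, Notch4, Dll1 and Dll4 have the same level in every array.

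The ligands Dll4, Jag1 and Jag2 lay above the background limit and Dll1 just under it. Dll4, the Delta ligand known best from endothelium, had 555 units in every array (log2 9.12, SD 0, n = 3). It lay 1.18 log2 units above the background limit (SE 0.06, adjusted p = 0.000131 by limma with the error from genes with 3 different values, the highest of 13 alternatives). Of the sensory receptor probe sets, 5 reached the Dll4 level.

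Jag1, the Jagged ligand that endothelium can present to mural cells, had 388 units in replicates 1 and 2 and 469 in replicate 3. Its highest array was 1.21 times its lowest. The mean was log2 8.69 ± 0.16 (SD, n = 3), at 0.75 ± 0.09 (SE) above the background limit (adjusted p = 0.0103 by limma). The call was lost without replicate 1 (adjusted p = 0.106) and without replicate 2 (adjusted p = 0.108), where the arrays left differed from each other. With the 99th percentile of the sensory receptors as the limit the difference was -0.04 (adjusted p = 0.724 by limma, the highest of 13 alternatives). The Jag1 mean was reached by 13 of the sensory receptor probe sets. Jag2, the second Jagged ligand, had 321, 321 and 330 units in replicates 1, 2 and 3. These arrays nearly coincided, with a mean of log2 8.34 ± 0.02 (SD, n = 3) and a difference of 0.40 ± 0.01 (SE) from the background limit (adjusted p = 0.000785 by limma). With the error prior from genes with 3 different values the SE was 0.06 and the adjusted p was 0.00393 by limma. With the 99th percentile of the sensory receptors as the limit Jag2 was called below it, by a difference of -0.39 (adjusted p = 0.000844). In the other alternatives it was called above, with an adjusted p of at most 0.0355 by limma. At or above the Jag2 mean were 27 of the sensory receptor probe sets.

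Dll1, a Delta ligand known from development and from lymphoid and arterial tissue, had 227 units in every array (log2 7.83, SD 0, n = 3). Its difference from the background limit was -0.11. limma called it below the limit, but with the error taken from genes with 3 different values (SE 0.06) the call was lost (adjusted p = 0.14, the highest of 13 alternatives). The level was thus close to the limit, and 81 sensory receptor probe sets were at or above it.

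The targets Hey1 and Hes1 were the members that had 3 different values over the arrays. Hey1, a repressor downstream of Notch in arterial endothelium, had 400 units in replicate 1, 278 in replicate 2 and 309 in replicate 3. Replicate 1 was the high one, at 1.44 times the lowest, and all arrays were over the background limit. The mean was log2 8.34 ± 0.27 (SD, n = 3), a difference of 0.40 ± 0.15 (SE) from the limit, which did not pass the test (adjusted p = 0.102 by limma). With the error prior from genes with 3 different values it passed (adjusted p = 0.0394), and over 13 alternatives the adjusted p ran from 0.0311 to 0.334, with 2 past the threshold. Against 100 units Hey1 was called above (adjusted p = 0.00507 by limma), a call lost without replicate 2 (0.0602) and without replicate 3 (0.0878). The Hey1 mean was reached by 27 of the sensory receptor probe sets.

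Hes1, a repressor that many tissues switch on downstream of Notch, had 473, 418 and 364 units in replicates 1, 2 and 3. The arrays were spread evenly and the highest was 1.30 times the lowest. The mean was log2 8.70 ± 0.19 (SD, n = 3), at 0.76 ± 0.10 (SE) above the background limit (adjusted p = 0.0144 by limma). Leaving out any array ended this call, with an adjusted p of 0.0926 without replicate 1, 0.152 without replicate 2 and 0.0668 without replicate 3. Against 100 units Hes1 was called above (adjusted p = 0.00162 by limma), and without replicate 2 this call was lost as well (adjusted p = 0.0547). At or above the Hes1 mean were 13 of the sensory receptor probe sets.

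By limma with Benjamini-Hochberg adjustment over all genes, all 10 members were called above 100 units, where 84.5% of all genes were called above. Above the background limit stood 7 members, with 52.7% of all genes called above it, and 2 stood below, with 41.3% of all genes called below it. The median level of the members was log2 8.60 and that of all genes log2 8.15. With the error prior from genes with 3 different values, 8 members were above the background limit and 1 below, where 49.8% of all genes were called above and 37.8% below. The count above the background limit fell to 4 without replicate 1 (Notch3, Notch4, Dll4 and Jag2), to 5 without replicate 2 (with Notch1 in addition) and to 5 without replicate 3 (with Jag1 in addition), where 44.1%, 42.9% and 43.1% of all genes were called. For a gene with tied arrays, such as Notch3, Notch4 and Dll4, a call in these fits follows from the ties and says nothing about its stability. The same holds for Notch1 without replicate 2 and for Jag1 and Jag2 without replicate 3, where the arrays left are tied. Above 100 units the members called were 10, 8 and 8 without replicates 1, 2 and 3, and 78.8%, 77.7% and 78.0% of all genes. Levels of different genes were not ranked, because probes differ in affinity.

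The spread over the arrays differed between the members. Identical values in every array were found for 4 members (Notch3, Notch4, Dll1 and Dll4), 2 different values for 4 (Notch1, Notch2, Jag1 and Jag2) and 3 for 2 (Hey1 and Hes1). The shares of all genes were close to these, at 46.3%, 29.7% and 24.0% in the same order. The SD of Notch1 was larger than that of 94.2% of all genes, that of Hey1 larger than 92.7% and that of Hes1 larger than 87.9%. A range over 0.5 log2 units was found for Notch1 and Hey1, 2 of the 10 members, and for 7.44% of all genes. As 3 arrays of 1 group hold no contrast, no array was tested against the others.

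The other genes of the pathway, named in 9 lists, mostly lay above the background limit. Of 81 listed genes 78 had a probe set naming them alone. Of these, 77 were called above 100 units and 1 below it, with 84.5% of all genes called above. Against the background limit, 65 were called above, 9 below and 4 neither. Of all genes, 52.7% were called above that limit and 41.3% below it. The median level of the 78 genes was log2 9.15. These genes include widely expressed enzymes and chromatin factors as well as vessel genes.

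The enzymes that modify the receptors before they reach the surface were measured for 5 of 5 genes. Of these, 4 were above the background limit, against 52.7% of all genes. Pofut1 and Poglut1, which attach the first sugars to the receptor, stood at log2 9.03 and 9.19, the same in every array. The Fringe enzymes lengthen those sugars and change which ligand a receptor prefers. Mfng stood at log2 10.04 in every array. Lfng had log2 levels of 9.65, 8.70 and 8.80 in replicates 1, 2 and 3, so that replicate 1 was high. It was the gene not called against the background limit (9.05 ± 0.52, SD, n = 3, adjusted p = 0.0525 by limma), and with the error prior from genes with 3 different values it was called above (adjusted p = 0.0104), as were all 5 genes of the list.

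Of 9 proteases that cut the receptors 8 were above the background limit, against 52.7% of all genes. Adam10 and Adam17, which cut the receptor at the surface after ligand binding, stood at log2 11.12 ± 0.10 and 10.26 ± 0.07 (SD, n = 3), Furin, which cleaves the receptor on its way to the surface, at 8.98 ± 0.02 and the presenilin Psen2, a catalytic subunit of gamma-secretase, at 8.30 ± 0.03. Aph1b, a further subunit, was the exception at log2 7.92, a difference of -0.02 from the limit. That call was lost with the error prior from genes with 3 different values.

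All 9 genes of the nuclear complex were above the background limit, against 52.7% of all genes. Rbpj, the DNA-binding partner of the cut receptor, stood at log2 9.85 ± 0.08 (SD, n = 3). Of the Mastermind coactivators, Maml1 stood at 8.37 and Maml3 at 8.27 in every array. Maml2 had 9.81, 8.79 and 9.10 in replicates 1, 2 and 3, again with replicate 1 high. Of 11 measured corepressors 10 were above the limit, beside the same 52.7% of all genes. Spen, which holds Rbpj targets off without Notch, stood at log2 9.75 ± 0.03, Ctbp1 at 9.68 ± 0.24, Ctbp2 at 9.35 ± 0.01 and the deacetylase Hdac1 at 11.42 ± 0.13, and Hdac3 at 8.21 ± 0.18 was not called (adjusted p = 0.104 by limma).

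All 7 genes for ligand endocytosis, the pull that activates the receptor, were above the limit. The ligase Mib1, which marks ligands for uptake, stood at log2 10.14 ± 0.10 (SD, n = 3), Mib2 at 8.48, Neurl1a at 8.53 ± 0.02 and Neurl1b at 9.50. Of 10 genes for turnover and inhibition of the receptors, 8 were above, 1 below and 1 neither. Beside both lists, 52.7% of all genes were called above the limit and 41.3% below it. Numb, which antagonizes the receptor, stood at log2 10.77 ± 0.04, and its relative Numbl at 7.60 in every array was below the limit. The ligase Itch stood at 10.97 in every array, and Fbxw7, which marks the cut receptor for degradation, had 9.44, 10.67 and 10.26 in replicates 1, 2 and 3, with replicate 1 low. Dtx2 at 7.82 ± 0.10 was not called (adjusted p = 0.132 by limma). With the error prior from genes with 3 different values 7 of the list were above.

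Of 7 other and noncanonical ligands, 3 were above the limit and 4 below, all with the same value in every array. Egfl7, a secreted endothelial protein that can bind Notch receptors, stood at log2 11.71, Dlk1 at 8.38 and Dlk2 at 8.90. Dll3, a Delta protein that does not activate receptors on neighbors, stood at 7.60, Dner at 7.52, Mfap5 at 7.44 and Cntn1 at 7.01. Among 8 other Hes and Hey factors, 4 were above the limit, 3 below and 1 neither. For all genes the shares were 52.7% above and 41.3% below. Neither list had a larger share above the limit than all genes. Hey2, a relative of Hey1 known from arteries and heart, stood at log2 6.48 in every array and was the pathway gene called below 100 units. With the error prior from genes with 3 different values that call was lost (adjusted p = 0.0546 by limma). Hes3 at 7.24 was below the background limit, Hes2 at 8.01 ± 0.02 (SD, n = 3) above it, and Heyl at 8.08 ± 0.08 neither (adjusted p = 0.0764 by limma). Hes2 lost its call with that prior (adjusted p = 0.344 by limma), which left 3 of the list above. Hes5 (8.66), Hes6 (8.59) and Hes7 (8.17), known from neural and segmenting tissue, were above it and Helt (7.35) below, values chosen after they were seen.

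All 12 vessel genes linked to Notch were above the background limit, against 52.7% of all genes. Efnb2, the arterial ephrin, stood at log2 10.90 ± 0.12 (SD, n = 3), the arterial connexins Gja4 and Gja5 at 9.07 ± 0.21 and 10.43 ± 0.23, and Unc5b, a guidance receptor of arteries and sprouts, at 8.66 in every array. The list also holds the venous genes Ephb4 (10.43 ± 0.01) and Nr2f2 (9.91 in every array), named after their values were seen, so its count does not separate arterial from venous vessels.

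**Figure D2:**
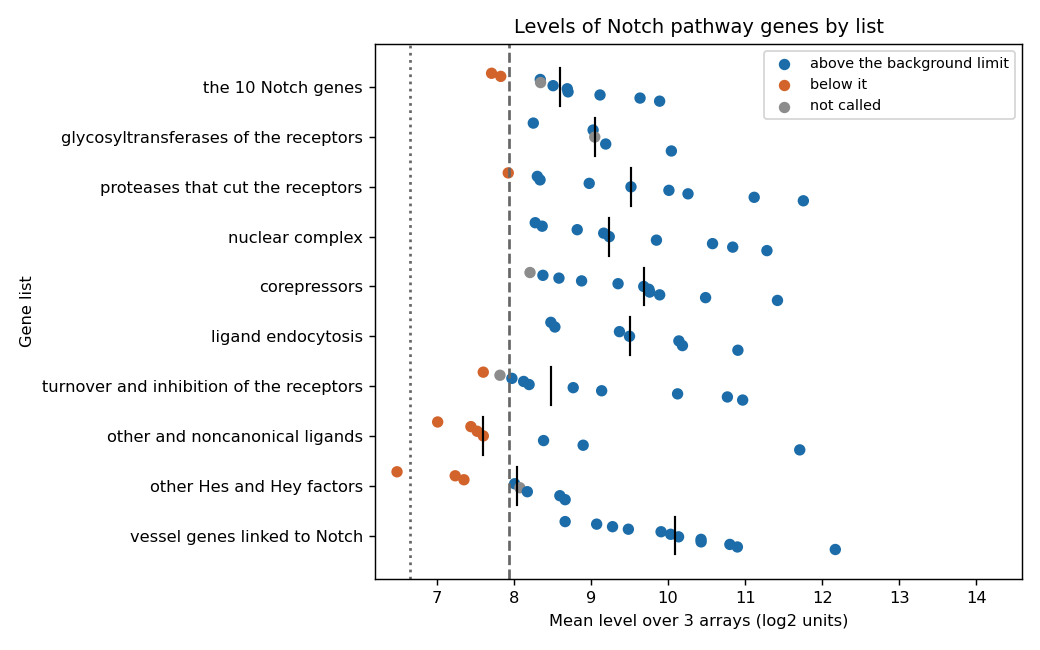
Mean level over 3 arrays (x axis, log2 units) of each gene in the 10 Notch genes and in 9 lists of other pathway genes (y axis), colored by the limma call against the background limit, with list medians as black bars. The dotted line is 100 units (6.64) and the dashed line the background limit (7.94); all genes of the nuclear complex, ligand endocytosis and vessel lists lie above the dashed line, and Hey2 lies left of the dotted line.

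A range over 0.5 log2 units was found for 6 of 78 pathway genes (7.69%), near the 7.44% of all genes. They were Lfng, Maml2, Fbxw7, the gamma-secretase subunit genes Ncstn and Psenen, and the chemokine receptor gene Cxcr4, the last 3 named for their range after it was seen. Lfng, Maml2, Ncstn and Cxcr4 were highest in replicate 1, as were Hey1 and Hes1, while Psenen and Fbxw7 were highest in replicate 2. Of 4781 genes with 3 different values, 35.5% were highest in replicate 1. Of the 7 markers of the thick ascending limb, a tubule of the medulla, 2 were also highest in replicate 1. Umod, the gene of the main urinary protein, had log2 levels of 11.61, 10.40 and 9.49 in replicates 1, 2 and 3, and the salt transporter gene Slc12a1 had 9.68, 8.07 and 7.81. The other markers did not follow that order. The claudin gene Cldn16 was lowest in replicate 1 (7.07, 7.34 and 7.34), Cldn10 was highest in replicate 2 (8.76, 9.08 and 8.50), and Kcnj1 (8.84), Cldn19 (8.24) and Ptger3 (8.14) were the same in every array. Cldn10, Cldn19 and Ptger3 were named after their values were seen. The summed level of the 7 was 5552, 3364 and 2513 units, differences that lay mostly in Umod (3122, 1348 and 721 units). Called above the background limit were 5 of the 7 markers, against 52.7% of all genes. Endothelial markers summed to 42557, 38304 and 39162 units in the same order, and 5 of 8 were highest in replicate 1. The part of tubule cells in the array differences of Hey1, Hes1 and Lfng was not tested.

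**Figure D3:**
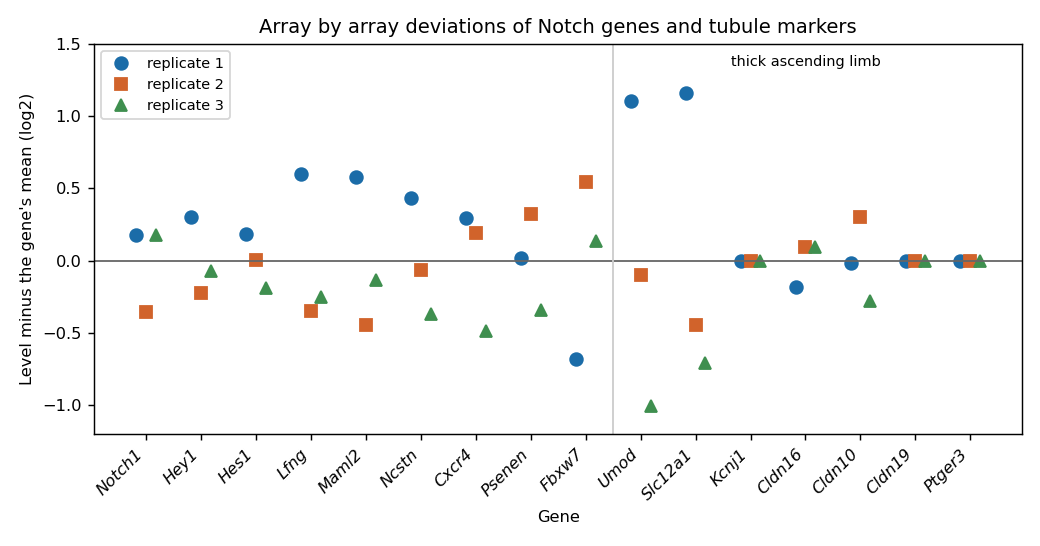
Level in each array minus the mean of the gene (y axis, log2) for 3 Notch members, the 6 pathway genes with a range over 0.5 log2 units, and the 7 markers of the thick ascending limb (x axis). Replicate 1 is the high array for Hey1, Hes1, Lfng, Maml2, Ncstn, Cxcr4, Umod and Slc12a1, and the low array for Fbxw7 and Cldn16, while Kcnj1, Cldn19 and Ptger3 lie at 0 in every array.

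Other cell types that use Notch were read through their markers. Beside the counts of each list, 52.7% of all genes were called above the background limit and 41.3% below it. For fibroblasts 3 of 7 markers were above the background limit, with a summed level of 1515 to 1529 units. The collagen genes Col1a1 (log2 8.81), Col1a2 (8.31) and Col3a1 (8.17) were above it and the decorin gene Dcn (7.26) below. For the collecting duct 5 of 9 were above, with summed levels of 3007, 3650 and 2706 units in replicates 1, 2 and 3. Among them were the water channel genes Aqp2 at 9.54 ± 0.23 (SD, n = 3) and Aqp3 at 8.55 ± 0.01. Fxyd4 at 9.57 ± 0.65 (604, 1275 and 571 units in the same order) and Hsd11b2 at 8.25 were also above. Scnn1b (7.29), Scnn1g (6.43) and Atp6v0d2 (6.10) were below. For the proximal tubule 2 of 8 were above, with 1409 to 1413 units. These were the transporter genes Slc34a1 (8.40) and Slc5a2 (8.41), whereas the endocytic receptor genes Lrp2 (7.28) and Cubn (6.30) and the gene Kap (6.76) were below. Podocytes had 2 of 4 above, Synpo (8.32) and Wt1 (8.11), with 925 to 974 units, and Nphs1 (7.69) and Ptpro (7.13) were below. Leukocytes had 2 of 8 above, Cd74 at 9.91 ± 0.89 and Cd3e at 8.52. The 8 markers summed to 1789, 3175 and 1926 units in replicates 1, 2 and 3. Cd74 alone had 616, 1945 and 740 units in that order. Ptprc (6.68), Csf1r (7.54), Adgre1 (6.18) and Lyz2 (7.35) were below. No marker of these lists was at 0, and whether such cells add to the level of any Notch gene was not tested.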

How the data were processed

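Endothelial cells of the adult renal medulla were measured on Affymetrix Mouse Gene 1.0 ST arrays after 1 round of NuGEN amplification, on 3 arrays of separately labelled pools. The study describes its samples as biologically independent. For genes whose values differ, p-values draw on the spread between these pools and on the error prior. For a gene with the same value in every array, the error comes from the prior alone. The deposited values are log2 levels per probe set. The methods of the authors give RMA in GeneSpring, and the labels name Affymetrix Expression Console; which of them made the deposited table, and its genome build, are not stated. The log2 scale was read from the value range. Of 35557 probe sets, 21789 named 1 gene, 1621 several and 12147 none. Symbols were updated by Entrez identifier to RefSeq GRCm38.p6 (21698 matched).

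limma was fitted with an intercept on the log2 level minus a limit (two-sided, Benjamini-Hochberg over 19938 genes, threshold 0.05). Because many genes had no spread, the fit was repeated with the eBayes prior from genes with 3 different values. The fit was tested on simulated data whose spread was drawn from genes with 3 different values. That test held no tied arrays, so it does not cover genes with identical values.

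Named were all members, and of each list the first 4 measured genes and up to 3 on the other side of a limit. The members and lists were chosen with earlier results of these data known. Alternatives changed the limits, probe set rule, normalization, prior, filter and arrays. Not used: probe-level files, scan dates and other compartments. Python 3.11.15, numpy 2.4.6, pandas 2.3.3, matplotlib 3.10.9, R 4.3.3 and limma 3.58.1 were used.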

Additional observations from a re-analysis of the deposited data

How the results depend on the processing

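The count of members above 100 units was 10 in every alternative except a limit of 200 units (9) and the fits without 1 array (8 to 10). Above the background limit, 7 members became 3 with the 99th percentile of the sensory receptors as the limit, 9 with the 90th, 8 with the prior from genes with 3 different values, and 4 to 5 without 1 array, and stayed 7 in the others. With the 99th percentile the difference changed sign for Notch3 (-0.22), Jag1 (-0.0356), Jag2 (-0.39), Hey1 (-0.38) and Hes1 (-0.0256), and with the 90th for Notch2 (0.10) and Dll1 (0.22), since these limits (log2 8.73 and 7.61) lie across the level of those genes. Pathway genes above 100 units numbered 69 to 78 and above the background limit 45 to 70, against 77 and 65. Every member had 1 single-gene probe set, so the probe set rule did not change a member's level, and another normalization moved it by between -0.00362 and 0.00588 (log2). Fits on 2 arrays have few degrees of freedom. No paired analysis was possible because the series has 1 group. Slide and scan date were not used here, so no batch block was run.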
